A study of Mus musculus with 12 samples.

Results

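A group of 35 interferon-stimulated genes was followed in whole-kidney RNA-Seq of mice treated with SK-124, a selective inhibitor of the salt-inducible kinases SIK2 and SIK3. The genes were taken by name from a list that was drawn up with earlier results of these data known, and all 35 were matched to 1 identifier each among the 55401 gene identifiers in the files. Of these, 32 had enough counts to be tested and 3, *Oas3*, *Mx1* and *Mx2*, did not pass the filter on low counts. The list holds factors that carry the interferon signal, RNA and nucleic acid sensors, families of antiviral effectors, interferon-inducible GTPases and chemokines.

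Kidneys came from 6 vehicle-treated and 6 SK-124-treated wild-type C57BL6 male mice, with 1 library per mouse. The mice were 8 weeks old and received 40 mg/kg SK-124 once by intraperitoneal injection, or the vehicle, 15% 2-hydroxypropyl-beta-cyclodextrin. The time between injection and collection was 2.5 hours for RT-qPCR of this experiment and is not stated separately for RNA-Seq. No virus, interferon or other immune stimulus was given to either group, so the levels described are those of kidney without such an added stimulus.

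Expected counts, which are RSEM's estimates of the reads belonging to each gene, summed to between 19244227 and 19771802 per mouse. The 10 genes with the most counts took 39.9% to 43.2% of counts in vehicle-treated mice, 44.4% to 46.8% in SK-124-treated mice 1 to 3 and 38.6% to 40.2% in SK-124-treated mice 4 to 6. Results that depend on these subsets of mice are given with each. Macrophage markers summed to 66.2 to 86.5 CPM in vehicle-treated mice and 69.4 to 87.2 CPM in SK-124-treated mice, of which *Csf1r* made up 34.2 to 41.7 CPM and 37.6 to 47.4 CPM. Among the 7 macrophage markers *Cd68* was lower (log2 fold change -0.60, FDR = 0.00213, edgeR) and the other 6 were not called. Of these 6, *Adgre1* (-0.62, FDR = 0.0778, edgeR), *Mrc1* (-0.15) and *C1qc* (-0.15) were below 0. *Csf1r* (0.18, FDR = 0.0578, edgeR), *C1qb* (0.16) and *C1qa* (0.09) were above 0. Of 5 endothelial markers *Kdr* was lower (-0.85, FDR = 0.000647, edgeR), without overlap of the groups. The other 4 were not called, with *Pecam1* (0.07) and *Flt1* (0.12) above 0 and *Emcn* (-0.24) and *Plvap* (-0.21) below 0. The 6 dendritic cell markers summed to 2.30 to 3.65 CPM against 1.56 to 2.48 CPM, and *Itgax*, the only one tested, was not called (-0.57, FDR = 0.0619, edgeR). The 4 neutrophil markers summed to 0.148 to 1.23 CPM against 1.90 to 6.19 CPM. The 2 of them that were tested were both higher, without overlap of the groups, *S100a8* among them (log2 fold change 3.10, FDR = 0.000108, edgeR). The B cell marker *Cd79a* had 0.741 to 1.69 CPM against 0.1002 to 0.545 CPM and was lower (log2 fold change -1.75, FDR = 0.000627, edgeR). The markers *Cd79b* and *Ms4a1* of B cells and *S100a8*, *Ly6g* and *Retnlg* of neutrophils were at 0 in at least 1 mouse. The 10 kidney epithelial markers were detected in every mouse and summed to 8910 to 10500 CPM and 9660 to 11200 CPM. In whole tissue, fewer cells of a type and less RNA per cell cannot be told apart.

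Interferons are secreted proteins, and cells release those of type I and type III on sensing viral nucleic acid. Type I and type III interferons signal through JAK kinases to a complex with STAT2 and IRF9 that binds interferon-stimulated response elements (ISREs), while interferon-gamma acts at gamma-activated sites (GASs). Many of the induced genes are also transcribed at a low level without infection, in epithelium as well as in resident immune cells.

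The members were lowly expressed in these kidneys. Their mean level over mice, in CPM (counts relative to a TMM-scaled library size), ranged from 0.882 to 14.2 among the 32 tested, with a median of 5.98 against 12.5 for all 14159 genes tested. On the TPM scale, which corrects for gene length, *Ifi27* had the highest median in vehicle-treated mice, 15.35, with a range of 10.96 to 17.69 that lay above every other member's. *Ifit3*, *Irf9*, *Bst2* and *Irf7* followed with medians of 6.83, 6.72, 6.71 and 6.57 TPM, and their ranges overlapped. *Mx1* (0.0900 TPM) and *Oas3* (0.0600 TPM) were the lowest.

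With SK-124, 4 of the 32 tested members were lower (Benjamini-Hochberg FDR under 0.05 over all genes tested, by edgeR's quasi-likelihood test), and none was higher. The share of members called lower, 12.5%, was near the background: 13.5% of all genes tested were called lower, 10.8% higher and 24.4% either way. Among the 28 members not called, 4 had an unadjusted p under 0.05, and DESeq2 also called 4 members lower (background 12.9%) and none higher (background 12.2%). The median log2 fold change of the 32 members was -0.10, beside -0.01 for all genes tested, with 22 members (68.8%) below 0 against 51.0% of all genes. The plot of fold changes shows the 4 called genes apart from a series of small differences on both sides of 0.

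**Figure D1:**
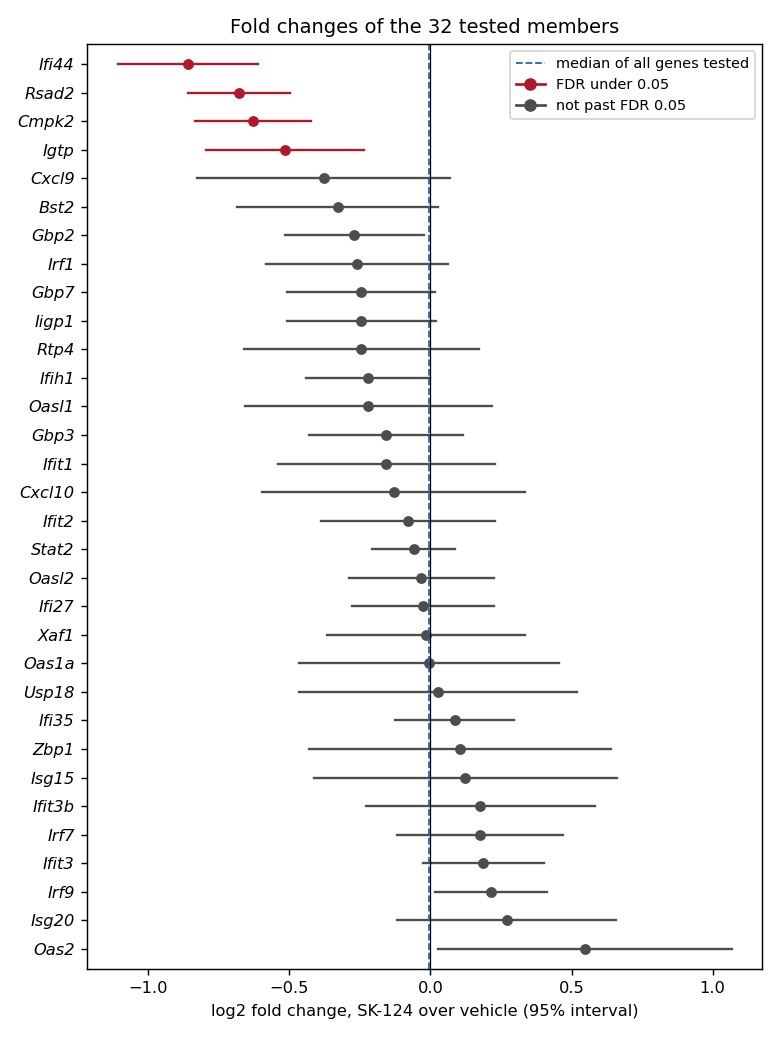
Log2 fold change (x axis, SK-124 over vehicle) of each of the 32 tested members (y axis, sorted), with points for estimates, lines for 95% intervals and a dashed line for the median of all genes tested. *Ifi44*, *Rsad2*, *Cmpk2* and *Igtp*, in red, have intervals wholly below 0, while the 28 members in grey were not past FDR 0.05.

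The genes called lower were *Rsad2*, *Cmpk2*, *Ifi44* and *Igtp*. *Rsad2* encodes viperin, a radical SAM enzyme that turns a nucleotide into a chain terminator of viral RNA synthesis, and *Cmpk2*, its neighbour on the chromosome, encodes a mitochondrial nucleotide kinase. *Ifi44* encodes a cytoplasmic protein of the interferon response. *Igtp* encodes a GTPase of the immunity-related family that acts at vacuoles holding intracellular parasites. *Rsad2*, *Cmpk2* and *Ifi44* were the 3 members (9.38%) whose SK-124 values all lay below the vehicle values, a pattern found in 6.65% of all genes tested. No member lay wholly above the vehicle values, as 6.32% of all genes did.

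In the GENCODE M21 annotation (GRCm38), *Rsad2* (ENSMUSG00000020641.16) spans positions 26442746 to 26456452 of chromosome 12 on the minus strand. Its level was 12.9 to 16.1 CPM in vehicle-treated mice, with a median of 15.0, and 7.56 to 11.2 CPM in SK-124-treated mice, with a median of 9.17. Every SK-124-treated mouse was below every vehicle-treated mouse, and SK-124-treated mouse 1 came closest to them. The log2 fold change was -0.68 (SE 0.09, FDR = 1.52e-05, edgeR), a change of -37.6%. Using SK-124-treated mice 1 to 3 alone it was -0.69, and using mice 4 to 6 alone it was -0.66.

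*Cmpk2* (ENSMUSG00000020638.8) lies on chromosome 12 from 26469204 to 26479837 on the plus strand, so that both genes are read away from a shared interval of 12752 bases between their starts. Vehicle-treated mice had 7.88 to 10.2 CPM, with a median of 9.59, and SK-124-treated mice 4.96 to 7.40 CPM, with a median of 6.10. The groups did not overlap, and the highest SK-124 value was that of mouse 6. The log2 fold change was -0.63 (SE 0.10, FDR = 0.000125, edgeR). Within groups, the deviations of *Cmpk2* and *Rsad2* from their group means had a Pearson r of 0.764 over 12 mice, 0.899 in vehicle-treated mice and 0.713 in SK-124-treated mice.

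*Ifi44* (ENSMUSG00000028037.13), on chromosome 3 from 151730922 to 151749960 on the minus strand, had the lowest fold change of the members. Its level was 9.81 to 12.1 CPM in vehicle-treated mice, with a median of 10.3, and 4.46 to 7.70 CPM in SK-124-treated mice, with a median of 5.63. All SK-124-treated mice were again below all vehicle-treated mice, with mouse 6 the highest of its group. The log2 fold change was -0.86 (SE 0.12, FDR = 3.47e-05, edgeR), a change of -44.9%.

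*Igtp* (ENSMUSG00000078853.8) lies on chromosome 11 from 58199556 to 58207591 on the plus strand, where the annotation has *Irgm2* overlapping it on the same strand. Its level was 7.51 to 11.99 CPM in vehicle-treated mice, with a median of 8.19, and 5.10 to 7.82 CPM in SK-124-treated mice, with a median of 6.27. The groups overlapped, because SK-124-treated mouse 5 (7.82 CPM) was above vehicle-treated mouse 4 (7.51 CPM). The log2 fold change was -0.51 (SE 0.13, FDR = 0.00811, edgeR). In SK-124-treated mice 4 to 6 alone it was -0.40 and no longer past the threshold (FDR = 0.112, edgeR), whereas *Rsad2*, *Cmpk2* and *Ifi44* were lower in each subset.

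**Figure D2:**
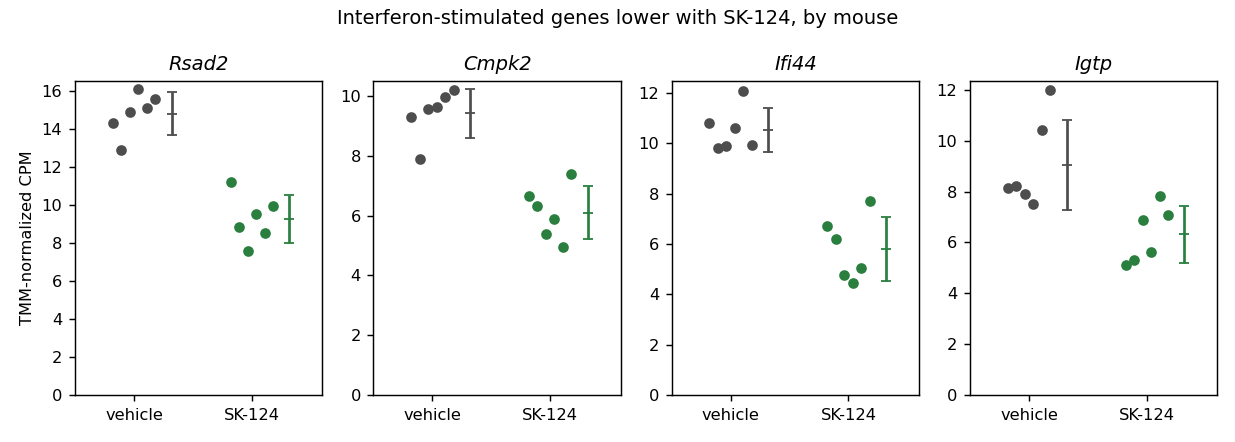
TMM-normalized CPM (y axis) of the 4 members called lower in each vehicle-treated and SK-124-treated mouse (points, mice 1 to 6 from left to right), with the mean and SD of 6 mice beside them. The groups are separate for *Rsad2*, *Cmpk2* and *Ifi44* and overlap for *Igtp*, where SK-124-treated mouse 5 stands at 7.82 CPM.

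The sequence before each start site was searched on both strands for the ISRE letters, GAAA followed after any 2 bases by GAAA again, and for the GAS letters, TTCNNNGAA. Matches to the ISRE letters may overlap each other. Only exact matches were counted, so that a window without one may still hold a looser form of either element. RefSeq promoter windows (GRCm38.p6, 250 bases before to 50 after each start) were found for 27 of the 35 members, with 33 windows in all. The ISRE letters were in 15 of these 33 windows (45.5%) and in 3.44% of all 32851 windows, and the GAS letters in 8 (24.2%) and in 8.30%. Of the genes with a window, 2 of the 4 called lower and 12 of the 22 tested and not called held the ISRE letters. The cAMP response element TGACGTCA, a target of CREB factors, was in none of the 33 windows and in 1.79% of all windows.

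The windows of the 4 called genes are shown with those of *Ifit1* and *Isg15*, which were not called, so that the letters can be compared. Capitals mark ISRE and GAS matches, and each line runs 5′ to 3′ on the strand of the gene. *Rsad2* (chr12:26456403-26456702, minus strand) has 1 ISRE match that starts 120 bases before the start site. *Igtp* (chr11:58199306-58199605, plus strand) has a GAS match 45 bases and an ISRE match 34 bases before it. *Cmpk2* (chr12:26468965-26469264, plus strand) and *Ifi44* (chr3:151749861-151750160, minus strand) have no exact match to either set of letters in this window. Looser forms were not searched for. *Ifit1* (chr19:34640639-34640938, plus strand) has 2 ISRE matches and *Isg15* (chr4:156200769-156201068, minus strand) has 3 that overlap each other.
Rsad2: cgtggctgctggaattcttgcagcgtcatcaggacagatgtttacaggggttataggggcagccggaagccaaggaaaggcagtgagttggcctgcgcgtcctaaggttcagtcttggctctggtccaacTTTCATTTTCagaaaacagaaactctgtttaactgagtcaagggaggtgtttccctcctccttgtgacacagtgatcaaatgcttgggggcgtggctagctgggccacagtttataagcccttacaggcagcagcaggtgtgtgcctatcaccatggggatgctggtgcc
Igtp: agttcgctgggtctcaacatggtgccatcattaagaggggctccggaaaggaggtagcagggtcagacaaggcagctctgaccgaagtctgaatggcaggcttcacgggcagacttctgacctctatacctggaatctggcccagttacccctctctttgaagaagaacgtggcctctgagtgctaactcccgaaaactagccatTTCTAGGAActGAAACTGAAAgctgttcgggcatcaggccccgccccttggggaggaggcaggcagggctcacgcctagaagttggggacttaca
Cmpk2: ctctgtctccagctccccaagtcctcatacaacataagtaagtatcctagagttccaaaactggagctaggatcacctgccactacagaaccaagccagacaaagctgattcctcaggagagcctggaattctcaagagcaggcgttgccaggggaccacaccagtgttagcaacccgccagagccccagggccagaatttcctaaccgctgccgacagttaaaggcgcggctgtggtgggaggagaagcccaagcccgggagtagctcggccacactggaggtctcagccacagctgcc
Ifi44: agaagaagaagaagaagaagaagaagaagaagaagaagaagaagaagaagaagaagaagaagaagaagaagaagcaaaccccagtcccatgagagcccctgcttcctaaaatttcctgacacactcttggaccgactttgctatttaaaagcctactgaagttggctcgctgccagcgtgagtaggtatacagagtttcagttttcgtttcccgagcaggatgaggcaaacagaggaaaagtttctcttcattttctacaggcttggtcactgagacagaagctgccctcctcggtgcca
Ifit1: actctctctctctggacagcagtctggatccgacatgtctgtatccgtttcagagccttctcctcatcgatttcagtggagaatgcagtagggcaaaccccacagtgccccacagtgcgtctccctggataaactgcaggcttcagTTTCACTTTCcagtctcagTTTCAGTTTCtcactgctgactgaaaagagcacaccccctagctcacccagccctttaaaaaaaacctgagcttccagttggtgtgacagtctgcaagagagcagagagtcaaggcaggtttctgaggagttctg
Isg15: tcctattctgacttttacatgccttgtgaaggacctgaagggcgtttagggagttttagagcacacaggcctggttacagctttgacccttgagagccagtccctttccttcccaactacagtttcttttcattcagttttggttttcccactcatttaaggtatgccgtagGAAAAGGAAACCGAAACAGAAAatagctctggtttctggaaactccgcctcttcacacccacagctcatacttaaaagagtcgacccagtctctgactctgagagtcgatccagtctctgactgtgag

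None of the 4 signalling members was called. *Stat2* and *Irf9* encode parts of the ISRE-binding complex. *Stat2* had 11.4 to 14.6 CPM in vehicle-treated mice and 11.3 to 13.1 CPM in SK-124-treated mice, with a log2 fold change of -0.06 (95% interval -0.21 to 0.09), the narrowest interval of the members. *Irf9* had a log2 fold change of 0.22 (SE 0.09, FDR = 0.109, edgeR), and its values of 9.60 to 14.5 CPM and 11.5 to 16.1 CPM overlapped. *Irf7*, which amplifies the type I response, had a log2 fold change of 0.18 and *Irf1*, an early interferon-gamma target, one of -0.26, and both groups overlapped for each.

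The nucleic acid sensors were not called either. *Ifih1* encodes MDA5, a sensor of long double-stranded RNA, and had a log2 fold change of -0.22 (FDR = 0.141, edgeR). *Zbp1*, a sensor of Z-form nucleic acid, had 0.942 to 2.46 CPM and 0.695 to 2.28 CPM, with a log2 fold change of 0.11. The interval of *Zbp1* ran from -0.43 to 0.64, so that a change of moderate size in either direction was not detectable at this depth.

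The *Ifit* genes encode proteins that bind foreign RNA and block its translation. All 4 were tested and none was called, with 2 estimates on each side of 0, from -0.16 for *Ifit1* to 0.19 for *Ifit3*. *Ifit3* and *Ifit3b* are close copies. RSEM's posterior SD of the count, summed over mice, was 4.5% of the summed count for *Ifit3b* and 1.12% for *Ifit3*. These values are the uncertainty of the estimated counts, and the share of reads that match both genes was not measured. The deviations of *Ifit3* and *Ifit3b* from group means had a Pearson r of 0.766 over 12 mice, and the part of shared reads in it was not tested.

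Genes of the OAS family encode enzymes that make oligoadenylates to activate RNase L, or related proteins without that activity. Of 5 listed, 4 were tested and none was called. *Oas2* had the highest log2 fold change of all tested members, 0.55 (SE 0.25, FDR = 0.122, edgeR), from 0.655 to 1.66 CPM in vehicle-treated mice and 0.811 to 2.48 CPM in SK-124-treated mice. On the TPM scale with a pseudocount of 1 its log2 difference was 0.06. That pseudocount is larger than its medians of 0.400 TPM in vehicle-treated and 0.465 TPM in SK-124-treated mice. The parts of the pseudocount and of the TPM scale itself in the smaller difference were not tested. The log2 fold changes of *Oas1a*, *Oasl1* and *Oasl2* were -0.00, -0.22 and -0.03. The summed posterior SD of *Oas1a* was 6.54% of its summed count, the highest value among the members.

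*Mx1* and *Mx2* encode dynamin-like antiviral GTPases, and C57BL6 mice carry a defective *Mx1*. Together with *Oas3* they were left untested, at 1 to 19 counts per mouse. *Mx1* had 0.149 to 0.332 CPM in vehicle-treated mice and 0.0501 to 0.355 CPM in SK-124-treated mice. *Mx2* stood at 0.204 to 0.593 CPM and 0.0495 to 0.760 CPM, and *Oas3* at 0.0494 to 0.511 CPM and 0.116 to 0.963 CPM. The groups overlapped for all 3, at levels near the 0.142 to 0.175 CPM that 3 counts make in these libraries.

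*Isg15*, a ubiquitin-like protein, and *Usp18*, the protease that removes it from its targets and restrains the type I receptor, had log2 fold changes of 0.12 and 0.03. Both were near 1 CPM, and their 95% intervals were wide, -0.41 to 0.66 for *Isg15* and -0.47 to 0.52 for *Usp18*. Among the remaining antiviral genes, 6 of 9 were not called. *Bst2*, which encodes the virus-tethering protein tetherin, had a log2 fold change of -0.33 (FDR = 0.178, edgeR), with 3.27 to 4.69 CPM against 2.22 to 5.17 CPM. *Isg20*, an exonuclease that degrades RNA, had one of 0.27. *Rtp4* was at -0.24, *Ifi27* at -0.03, *Ifi35* at 0.09 and *Xaf1* at -0.01 on the log2 scale, and their groups overlapped.

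All 5 interferon-inducible GTPases had estimates below 0 and 1 of them, *Igtp*, was called. The guanylate-binding proteins *Gbp2*, *Gbp3* and *Gbp7*, which coat vacuoles and bacteria in the cytosol, had log2 fold changes of -0.27 (FDR = 0.108, edgeR), -0.16 and -0.25. *Iigp1* had one of -0.24 (FDR = 0.174, edgeR). *Cxcl9* and *Cxcl10*, ligands of the T cell chemokine receptor CXCR3, had -0.38 (FDR = 0.222, edgeR) and -0.13 on the log2 scale. *Cxcl9* was below the vehicle median of 3.78 CPM in 5 of 6 SK-124-treated mice and reached 4.54 CPM in mouse 3, so that the groups overlapped.

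Of the 28 members not called, 27 had a 95% interval within 1 log2 unit of 0 and 12 within 0.5. The exception to the first was *Oas2*, whose interval ran from 0.03 to 1.07. The intervals are not adjusted for the number of genes tested.

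The members varied more between mice than other genes did. The median SD of log2(CPM + 0.5) was 0.189 among vehicle-treated mice and 0.279 among SK-124-treated mice, beside 0.148 and 0.141 for all genes tested, whose median level was higher. In SK-124-treated mice 23 of 32 members (71.9%) had a larger SD than in vehicle-treated mice, against 49.6% of all genes. The share over all genes was not stable, at 61.0% with library totals (members 78.1%), 61.7% on log2(TPM + 1) (members 68.8%) and 66.4% without vehicle-treated mouse 3 (members 78.1%). The members' share also rested on 1 mouse, since without SK-124-treated mouse 6 the count was 17 of 32 (53.1%) and the median SD was 0.219.

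SK-124-treated mouse 6 was the highest of its group in 23 of 32 members (71.9%) and the lowest in none, while it was the highest in 13.1% of all genes. Vehicle-treated mouse 6 was the highest of its group in 17 members (53.1%), against 14.9% of all genes. At the low end stood vehicle-treated mouse 2, lowest in 12 members, and SK-124-treated mouse 1, lowest in 11. The heat map of the members by mouse shows the column of SK-124-treated mouse 6 as red in most rows other than those at the top.

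**Figure D3:**
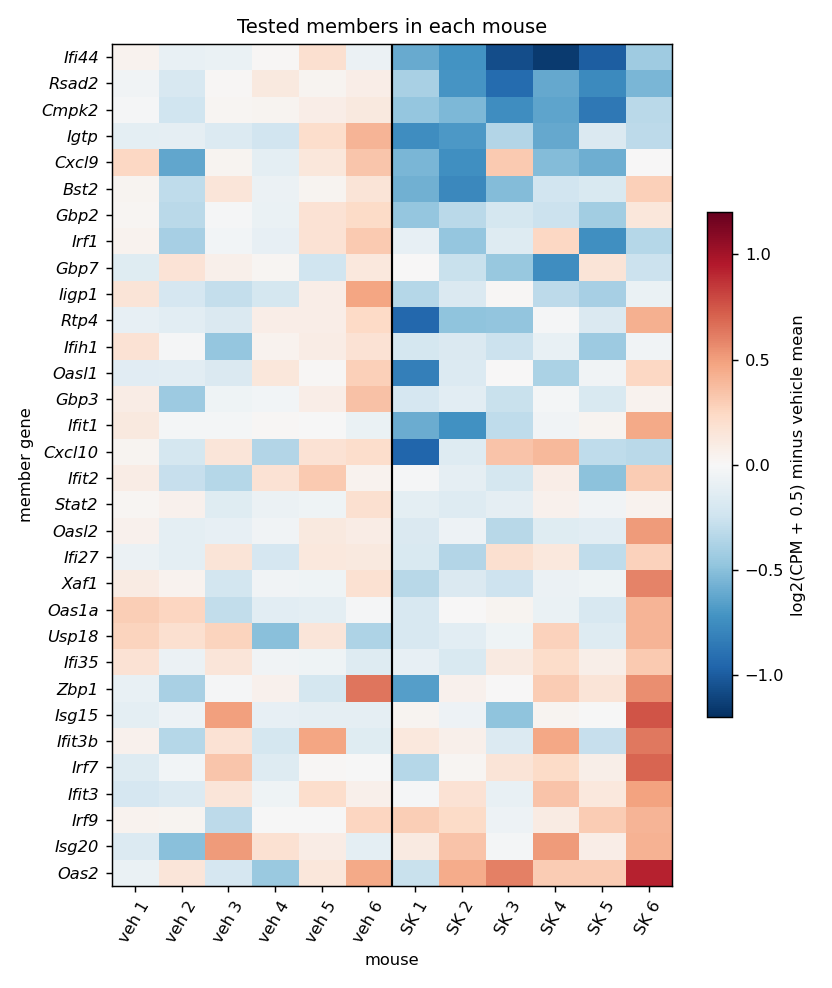
Difference of log2(CPM + 0.5) from the vehicle mean (colour scale) for the 32 tested members (rows, sorted by fold change) in each of 12 mice (columns). *Ifi44*, *Rsad2* and *Cmpk2* are blue in all 6 SK-124 columns, and SK-124-treated mouse 6 is the highest of its group in 23 of the 32 rows.

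Relative to the vehicle mean, the median member stood at 0.30 log2 units in SK-124-treated mouse 6 and between -0.24 and -0.02 in the other 5 mice of that group. Vehicle-treated mice lay between -0.12 and 0.14, and the median of all genes between -0.01 and 0.01 in every mouse. Using SK-124-treated mice 1 to 3 alone, the median log2 fold change of the members was -0.24 and 7 members were lower (*Ifit1*, *Rsad2*, *Cmpk2*, *Bst2*, *Rtp4*, *Ifi44* and *Igtp*), beside 8.50% of all genes. Using mice 4 to 6 alone, the median was 0.04 and 3 were lower (*Rsad2*, *Cmpk2* and *Ifi44*), beside 8.67%. Without mouse 6 alone the median was -0.19 and 6 members were lower, *Bst2* and *Gbp2* in addition to the 4 above, beside 11.5%. The difference between these subsets of mice was not tested.

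In SK-124-treated mouse 6 the summed macrophage (87.2 CPM), dendritic cell (2.48 CPM), T cell (2.13 CPM) and NK cell (0.253 CPM) markers were each the highest of the group, the NK cell sum resting on a few counts. Single markers did not all follow their sums. *Adgre1*, *Cd68*, *C1qb*, *Itgax*, *Clec9a*, *Cd8a* and *Cd4* were highest in this mouse. *Csf1r*, the largest part of the macrophage sum, was not, nor were *C1qa*, *C1qc*, *Mrc1*, *Cd3e*, *Cd3d*, *Cd3g* and the other dendritic cell markers. Mouse 6 ranked 5 of 6 for the neutrophil markers (2.84 CPM) and had 0.203 CPM of *Cd79a*, with 3 of the other 5 mice above it. Its total of 19528193 counts and its 40.2% share for the 10 largest genes lay within the range of the other mice. The part of immune cell content in the members' levels was not tested.

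The 5 members with the largest spread within a group were *Cxcl10*, *Rtp4*, *Ifit1*, *Zbp1* and *Cxcl9*, all of them among SK-124-treated mice. *Ifit1* had 3.03 to 3.55 CPM in the 6 vehicle-treated mice, an SD of 0.0665 on the log2 scale, and 1.75 to 4.61 CPM in SK-124-treated mice, an SD of 0.436. SK-124-treated mice 1 to 3 (1.97, 1.75 and 2.52 CPM) were below every vehicle-treated mouse, and mouse 6 (4.61 CPM) was above every one. *Rtp4*, a chaperone of opioid and other receptors that is also antiviral, had 3.01 to 4.17 CPM and 1.56 to 4.81 CPM, with SK-124-treated mouse 1 the lowest and mouse 6 the highest. *Cxcl10* did not follow this order: its SK-124 values ran from 1.10 CPM in mouse 1 to 3.56 CPM in mouse 4, and mouse 6 had 1.98 CPM.

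**Figure D4:**
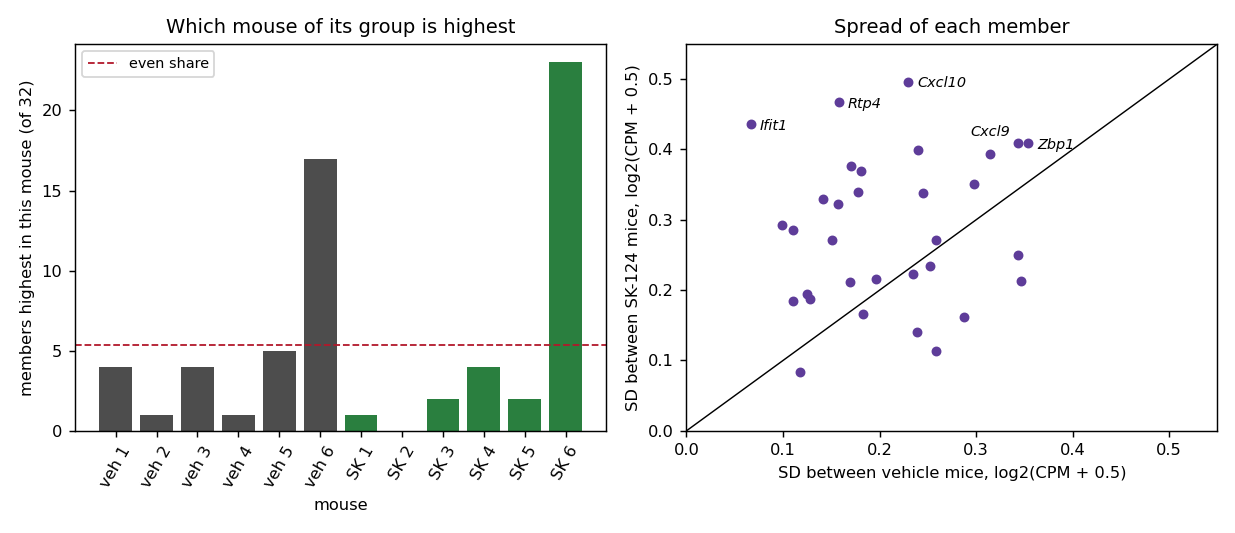
Left, the number of the 32 tested members that are highest in each mouse within its group, with a dashed line at an even share. Right, the SD of log2(CPM + 0.5) of each member between SK-124-treated mice (y axis) against that between vehicle-treated mice (x axis), with the line of equality; SK-124-treated mouse 6 has 23 highest members and 23 of 32 points lie above the line.

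The members also varied together. The median Pearson r of the deviations from group means over 12 mice was 0.349 for the 496 pairs of members, with 82.5% of pairs above 0, while it was near 0 for pairs of all genes, with 49.9% above 0. That contrast was smaller under other scalings: with library totals the median r was 0.5 for members and 0.214 for all genes, and on log2(TPM + 1) it was 0.513 and 0.318. The points share libraries, and without SK-124-treated mouse 6 the median was 0.156 and 62.9% of pairs were above 0. *Gbp2*, *Oasl2*, *Rtp4*, *Bst2* and *Xaf1* followed the mean of the members most closely (r of 0.927, 0.873, 0.851, 0.850 and 0.849), although each is part of that mean. *Gbp7* (-0.300) and *Rsad2* (0.278) followed it least, so that the gene with the smallest p was among those least tied to the common variation. Outside the list, *Pmepa1* (0.960), *Procr* (0.893), *Ctsl* (0.870), *Slamf7* (0.853) and *Tap1* (0.845) had the highest r with the mean of the members over 12 mice. They are the largest of a great many r values over few mice, and how high such maxima reach by chance was not tested.

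The other genes of the interferon pathway were counted from a separate list of 96 genes, also drawn up with earlier results of these data known. Of the 83 tested, 25 were lower and 5 higher (36.1%), beside 24.4% of all genes. The part of that choice of genes in this share and in those of the groups below was not tested. None of the 10 listed interferon genes could be tested: *Ifnb1*, *Ifna1*, *Ifna2*, *Ifna4*, *Ifna5*, *Ifnk*, *Ifne*, *Ifnl2* and *Ifnl3* had no count in any mouse, which allows up to 3 counts per library. *Ifng* had 1 or 2 counts in 5 of 6 vehicle-treated mice and 0 in all SK-124-treated mice, 7 counts in all, too few for a comparison.

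The receptor chains *Ifnar1*, *Ifnar2*, *Ifngr1*, *Ifngr2* and *Ifnlr1* were not called, with log2 fold changes from -0.08 for *Ifnar2* to 0.06 for *Ifngr1*. *Il10rb*, the chain that type III interferon shares with interleukin-10, was lower (log2 fold change -0.40, SE 0.07, FDR = 0.00028, edgeR). Among the kinases, *Tyk2* was lower (-0.26, FDR = 0.0126, edgeR), *Jak2* higher (0.27, FDR = 0.00389, edgeR) and *Jak1* not called. The call of *Jak2* was lost when library totals replaced TMM (0.15, FDR = 0.196, edgeR) and on the TPM scale, as was that of *Tyk2* on the TPM scale and with mice 4 to 6 alone (FDR = 0.109, edgeR).

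Among 15 tested sensors, adaptors and their transcription factors, 7 were lower (46.7%, beside 13.5% of all genes) and 1 higher (6.67%, beside 10.8%). The least stable of these calls was lost under 16 of the 23 alternatives to the main fit. *Irf8* (log2 fold change -0.68) and *Irf5* (-0.53), factors of myeloid and B cells, were lower, as were the double-stranded RNA receptor *Tlr3* (-0.57) and the adaptors *Mavs* (-0.45) and *Ticam1* (-0.24). *Ticam1* was just outside the threshold in either subset of 3 SK-124-treated mice (FDR of 0.0516 and 0.0507, edgeR). The kinase *Tbk1* was higher (0.31), a call that neither library totals (0.19, FDR = 0.0968, edgeR) nor the TPM scale gave. *Irf8* went from 7.86 to 11.9 CPM in vehicle-treated mice to 5.66 to 7.72 CPM in SK-124-treated mice, beside the B cell, macrophage and dendritic cell marker values given above, and the part of those cells was not tested.

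The largest change in the pathway was in a restraint of JAK signalling. *Socs3*, which encodes a feedback inhibitor of JAK kinases that many cytokines induce, had 1.59 to 2.7 CPM in vehicle-treated mice and 14.1 to 27.1 CPM in SK-124-treated mice. All SK-124-treated mice were above all vehicle-treated mice, and the log2 fold change was 3.28 (SE 0.16, FDR = 1.61e-10, edgeR). The phosphatase genes *Ptpn1* (0.77) and *Ptpn2* (0.33), whose products act on JAK and STAT proteins, were also higher, and the other 6 of 9 restraints were not called. Thus 3 of 9 were higher (33.3%, beside 10.8% of all genes) and none lower (beside 13.5%), while 5 of the 9 estimates were below 0. With library totals *Ptpn1* was still higher (0.65) and *Ptpn2* was not past the threshold (0.22, FDR = 0.105, edgeR), nor on the TPM scale.

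Of 33 further interferon-stimulated genes tested, 14 were lower (42.4%, beside 13.5% of all genes) and none higher (beside 10.8%). The least stable of these calls were lost under 12 of the 23 alternatives to the main fit. *Sp100*, a component of PML nuclear bodies, went from 11.0 to 16.5 CPM to 6.33 to 9.12 CPM, without overlap, at a log2 fold change of -0.76 (SE 0.10, FDR = 2.88e-05, edgeR). *Uba7*, the enzyme that activates ISG15 for conjugation, was lower at -0.69 while *Isg15* itself was at 0.12 and not called. *Dtx3l*, a ubiquitin ligase of the interferon response (-0.63), and *Samd9l*, an antiviral factor (-0.27), were both lower. The GTPases *Gbp4* (-0.70), *Gbp9* (-0.62), *Irgm2* (-0.55) and *Irgm1* (-0.37) were lower as well. With SK-124-treated mice 4 to 6 alone *Gbp9* was no longer past the threshold (-0.50, FDR = 0.102, edgeR), and with mice 1 to 3 alone *Samd9l* was not (-0.22, FDR = 0.128, edgeR).

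Of 16 tested genes of antigen presentation, 2 were lower, a share of 12.5% that is near the 13.5% of all genes. *Ciita*, the master regulator of MHC class II genes, went from 3.07 to 4.64 CPM to 1.65 to 2.13 CPM, without overlap (log2 fold change -0.97, SE 0.13, FDR = 2.90e-05, edgeR). *Psmb10*, a subunit of the immunoproteasome, was lower at -0.43 and is named after its value was seen, and with mice 4 to 6 alone it was not past the threshold (-0.34, FDR = 0.165, edgeR). The plot of all lists shows *Socs3* far above the others and the further interferon-stimulated genes mostly below 0.

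**Figure D5:**
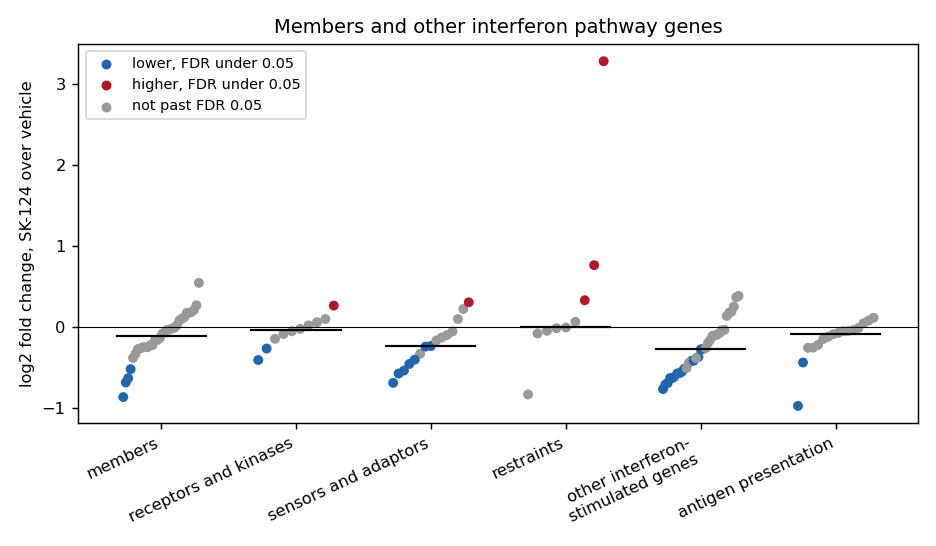
Log2 fold change (y axis, SK-124 over vehicle) of the members and of the other interferon pathway genes in groups (x axis), 1 point per tested gene, blue for lower and red for higher with FDR under 0.05, with a black line at each group's median. The members have 4 blue points and no red one, the further interferon-stimulated genes have 14 blue points, and *Socs3* stands at 3.28.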

How the data were processed

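Whole-kidney RNA of 12 mice was sequenced on a BGISEQ500. The authors deposited an RSEM gene table for each mouse, with expected counts (estimated reads per gene, not normalized) and TPM (scaled to effective gene length and library total). The submitters' processing notes name FastQC, STAR 2.7.2b, RSEM 1.3.0, DESeq2 and mm10. The annotation and the strand setting are not given in the sources used here, so reads of overlapping genes on opposite strands may not have been told apart. RSEM divides reads shared by similar genes. The deposited posterior SD of the count, summed over mice and divided by the summed count, gave the relative uncertainty of a gene's count. It is not the share of reads that match several genes.

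Symbols came from GENCODE M21, which matched 54349 of 55401 identifiers by full versioned name and 55141 once versions were ignored. Expected counts were rounded, filtered with filterByExpr and scaled with TMM. The quasi-likelihood test of edgeR was used, and FDR is Benjamini-Hochberg adjusted over 14159 genes. SE is the absolute log2 fold change over the square root of F. Spread was described on log2(CPM + 0.5). Totals differed little between mice, so precision falls mainly with a gene's own count. The biological coefficient of variation was 0.101, and no pair of mice of a group looked like a duplicated library (smallest chi-square per degree of freedom 4.69 over 30 pairs). The labels name no batch. P-values measure the spread between single mice. In simulated data with 200 of 14159 genes changed, edgeR recovered 72.1% at a log2 change of 0.5 and 95.5% at 1, with 5.41% false calls. Those genes were drawn from all genes tested, with a median SE of 0.0897, while the members had one of 0.143. The real data also had more genes called (3453), so the recovery does not give the power for the members.

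The members, the pathway list and the marker lists were chosen with earlier results of these data known. Every member is reported, while 1 pathway gene and 1 marker are not reported here. Values per mouse or per group are given for members past FDR 0.05, the 5 members with the largest SD and, as ranges, untested members, and of the pathway list the called genes with the smallest p, the ligands and the receptors are named. Other members' values were added where a sentence needed them. Alternatives were DESeq2, RLE factors, library totals, no filter, a stricter one (10 counts or more in each mouse), counts without rounding, a replicate block, limma on TPM with pseudocounts of 1 and 0.1 before log2, leaving out single mice, and using SK-124-treated mice 1 to 3 alone or 4 to 6 alone. RefSeq promoter windows (GRCm38.p6) were used for sequences, with no entry for 8 members. Software was edgeR 4.0.16, DESeq2 1.42.0 and limma 3.58.1 under R 4.3.3, with pandas 2.3.3, numpy 2.4.6, matplotlib 3.10.9 and scipy 1.17.1 under Python 3.11.15.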

Additional observations from a re-analysis of the deposited data

Results flagged for a closer look

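In 9 of 72 sets of 6 mice, 1 mouse stood apart from the others of its group by Dixon's criterion at 95%, where chance gives about 1 in 20, or 3.6. The sets were the CPM of each of the 35 members and the median of the tested members, in each group. SK-124-treated mouse 6 was the highest, and apart from the other 5 mice, for *Oas1a* (1.32 CPM), *Oasl2* (12.9 CPM), *Isg15* (2.13 CPM), *Xaf1* (4.51 CPM) and *Gbp2* (8.72 CPM). Vehicle-treated mouse 3 was apart as the highest for *Irf7* (11.7 CPM) and *Isg15* (1.69 CPM) and as the lowest for *Ifih1* (7.25 CPM). Vehicle-treated mouse 6 was apart as the highest for *Zbp1* (2.46 CPM). None of the 4 members called lower had a mouse that stood apart.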

How the results depend on the processing

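*Rsad2*, *Cmpk2* and *Ifi44* were lower under all 23 alternatives, with log2 fold changes of -0.81 to -0.62, -0.77 to -0.56 and -0.97 to -0.72, and *Igtp* under all but the fit with SK-124-treated mice 4 to 6 only. With library totals in place of TMM, 7 members were lower (*Ifih1*, *Gbp2* and *Gbp7* in addition) and all genes split into 777 higher and 3058 lower instead of 1536 and 1917. The median of all genes then moved to -0.12 and that of the members to -0.22. With only SK-124-treated mice 1 to 3, 7 members were lower, 2298 genes were called, and the spread was wider than in vehicle in 53.1% of members, as it was (53.1%) without SK-124-treated mouse 6. With limma on log2(TPM + 1), 5 members were lower (*Cxcl9* in addition) and genes split into 500 higher and 2130 lower. With DESeq2 genes split into 1724 higher and 1832 lower.

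Leaving out 1 mouse at a time gave 4 to 6 members lower, 0 to 1 higher, 2960 to 3942 genes called, and a share of members with wider spread of 53.1% to 78.1%. The 1 member higher was *Irf9* without vehicle-treated mouse 6 or SK-124-treated mouse 3, and *Oas2* without SK-124-treated mouse 1. With the replicate block, 4 members were lower and 1 higher (*Irf9*, FDR = 0.0222, edgeR) and 3466 genes were called. The numbers in the labels do not pair the mice: the deviations of same-numbered mice had an r of -0.131 to 0.217, above 0.1 in 2 of 6 pairs, and 2 of 6 mice correlated best with their own number. The block changed no other member's call. Causes of these shifts were not tested. At levels near 1 CPM, depth left intervals of about 0.5 log2 units on each side.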

Other observations

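The interferon-inducible GTPases were counted over both lists after their values had been seen. Of the 14 tested genes of the *Gbp*, *Irg*, *Tgtp* and *Ifi47* families, all 14 had estimates below 0 and 7 were lower (FDR under 0.05, edgeR), with a median log2 fold change of -0.40. Among all genes tested, 51.0% had estimates below 0 and 13.5% were lower. In the annotation *Gbp4* overlaps *Gbp9* and *Igtp* overlaps *Irgm2*, each on the same strand, so these genes may share reads. Their summed posterior SDs were 0.0109% to 0.443% of the summed counts, and those of *Gbp6*, *Tgtp2* and *Tgtp1* were 10.4%, 6.34% and 4.92%. The part of shared reads in these counts was not tested.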
